A study of Homo sapiens with 8 samples.

Results

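The genes described are 10 components and inhibitors of mTORC1 signalling, MTOR, RPTOR, TSC2, DEPTOR, LARP1, EIF4EBP1, DDIT4, SESN1, SESN2 and SESN3. They were taken by symbol from a list of the pathway, and all 10 were found among the 17927 genes of the RNA-seq table and among the 14019 genes of the Ribo-seq table. Cells of the human neuroblastoma line SH-SY5Y carried either a hairpin against RPS29 (shRPS29), a protein of the small ribosomal subunit, or a control hairpin (shCONT). RNA-seq of total RNA and Ribo-seq of ribosome-protected fragments were each made from 2 knockdown and 2 control libraries. Every group shares the cell line and a short hairpin RNA. The labels give 1 hairpin name per condition and do not say whether libraries of a group came from separate cultures, so p-values measure only the spread between these libraries, which may be technical.

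mTORC1 is a protein kinase complex that promotes protein synthesis and restrains autophagy when growth factors, amino acids and energy are plentiful. Its best known output in translation is on mRNAs that begin with a terminal oligopyrimidine (TOP) tract, which encode ribosomal proteins and translation factors; these mRNAs are held back by LARP1 and by the 4E-BP proteins when the kinase is inactive. Stress acts on it through brakes: the TSC complex switches off RHEB, the GTPase that activates mTORC1, DDIT4 (REDD1) acts through TSC, and the Sestrins bind the GATOR2 complex and so limit amino acid signalling. RNA and footprint counts measure the supply of these components and not the activity of the kinase, which depends on phosphorylation.

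RPS29 RNA had 147 and 117 counts in the knockdown libraries, against 2430 and 2872 in the control libraries. It fell by 4.40 on the log2 scale (SE 0.115, edgeR adjusted p = 6.32e-12), and its footprints fell too (log2 fold change -2.41, adjusted p = 0.0193). Footprint counts were 28 and 28 in the knockdown and 199 and 129 in the control. The background expected from gene span, described further on, was 9.59 and 6.21 counts in the knockdown and 1.73 and 1.31 in the control. RPS29 overlaps RN7SL1 and RPL32P29, whose reads could be counted with it. The footprint call was lost without knockdown replicate 2 (adjusted p = 0.0848), control replicate 1 (0.148) or control replicate 2 (0.0798), and with scaling from short well-expressed genes (-1.63, adjusted p = 0.18). Library totals were 17539104 to 19156104 counts in RNA-seq and 2630463 to 4375971 in Ribo-seq, where the 4 largest genes took 35.3 and 52.3% of the knockdown counts and 45.9 and 51.6% of the control counts. Spearman correlations between libraries, across genes, were 0.984 to 0.993 in RNA-seq and 0.455 to 0.827 in Ribo-seq, where knockdown replicate 1 stood farthest from the controls. Of 13 defining markers of SH-SY5Y, 12 had at least 10 CPM (counts scaled to library size) in every RNA-seq library, with a summed level of 8460 and 8390 CPM in the knockdown and 9160 and 9420 CPM in the control. Single markers moved in both directions: of 12 tested in RNA, 3 were called higher and 4 lower, beside 14.4% and 16.3% of all genes tested. The 3 with the smallest p were all lower, STMN2 at -1.04, TUBB3 at -0.94 and CHGA at -0.47 on the log2 scale. Fewer markers were called higher without either control library. In footprints 2 of the 12 were called lower and 0 higher (median -1.22), beside 0.607% and 7.96% of all genes tested. The calls of lower footprints were lost without knockdown replicate 1 or either control library. Epithelial markers summed to 7.27 and 8.93 CPM in the knockdown and 9.24 and 11.4 CPM in the control, and blood cell markers to 11.2 and 14.8 CPM in the knockdown and 6.81 and 7.91 CPM in the control, with 3 of the 5 listed blood cell markers under 1 CPM in every library. Fibroblast markers summed to 324 and 379 CPM in the knockdown and 343 and 318 CPM in the control, and 4 of 7 exceeded 10 CPM in every library. Their part in the changes given here was not tested, and in bulk libraries fewer cells of a type and less RNA per cell cannot be told apart.

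In RNA-seq the core of the complex did not pass the test, while the brakes moved in both directions. TSC2, EIF4EBP1, SESN1 and SESN2 rose, DDIT4 and SESN3 fell, and MTOR, RPTOR, DEPTOR and LARP1 did not pass the test. Those 4 of 10 genes higher and 2 of 10 lower stand beside 14.4% of 14723 tested genes called higher and 16.3% called lower at an adjusted p below 0.05 (edgeR quasi-likelihood test). The median log2 fold change was -0.02 over the 10 genes and 0.01 over all genes tested. In 7 of the 10 the knockdown and control libraries did not overlap in level, in CPM with library sizes adjusted by the trimmed mean of M-values (TMM), as in 65.2% of all genes tested, so that count is close to the background.

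**Figure D1:**
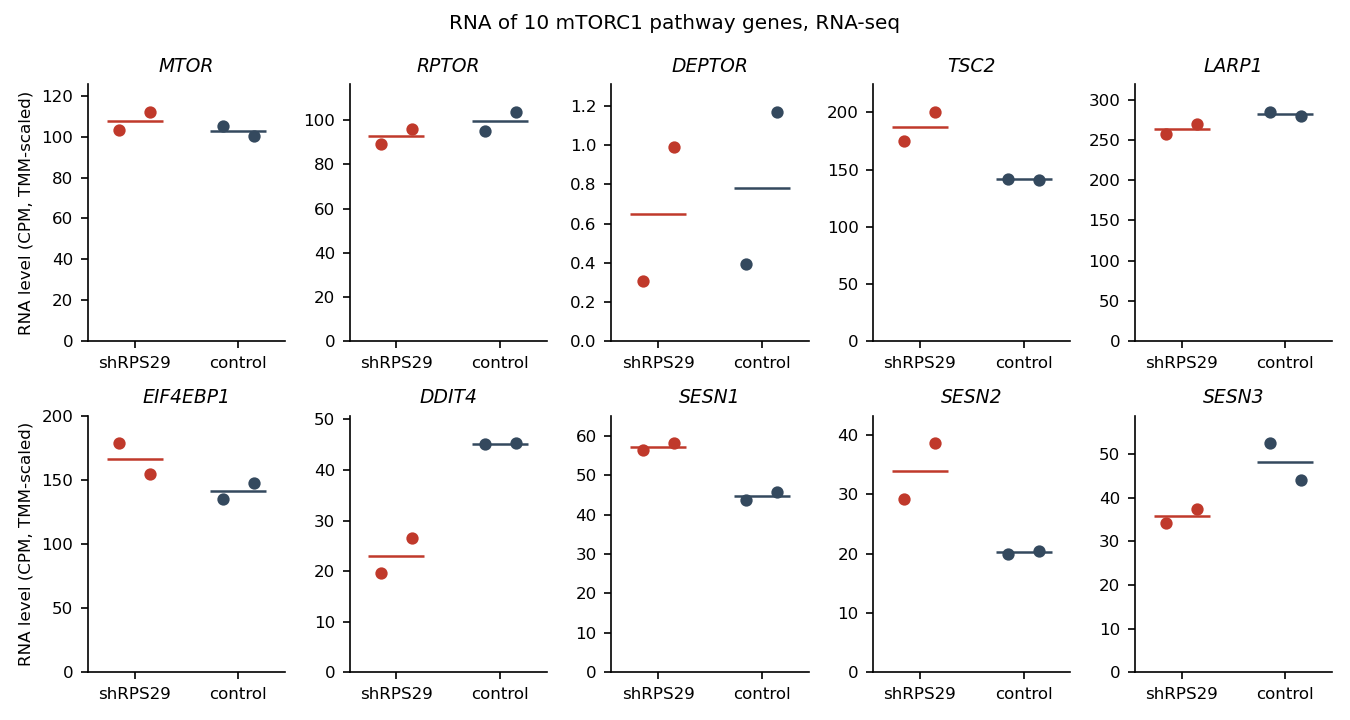
RNA level of each of the 10 genes (CPM, TMM-scaled, axis from 0) in the 2 shRPS29 and the 2 control RNA-seq libraries, with points for libraries and bars for group means. DDIT4 and SESN3 lie lower and TSC2, SESN1, SESN2 and EIF4EBP1 lie higher in both knockdown libraries than in both controls.

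MTOR, the kinase itself, had 103.5 and 112.2 CPM of RNA in the knockdown libraries, against 105.5 and 100.4 CPM in the controls. The groups overlapped, and the log2 fold change was 0.07 (SE 0.0761, adjusted p = 0.549). RPTOR, the scaffold subunit (Raptor) that brings substrates to the kinase, had 89.4 and 96.3 CPM in the knockdown and 95.4 and 103.8 CPM in the control. It too overlapped between groups, at -0.10 on the log2 scale (SE 0.0787, adjusted p = 0.362). DEPTOR, an inhibitory subunit of the complex, was close to absent from the RNA of these cells, with 6 and 18 counts in the knockdown and 7 and 21 in the control. At that depth no change in DEPTOR RNA was detectable (log2 fold change -0.28, SE 0.641, adjusted p = 0.779).

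TSC2 (tuberin) is the subunit of the TSC complex that stimulates RHEB to hydrolyse its GTP. Its RNA had 174.8 and 200.4 CPM in the knockdown libraries, against 141.8 and 141.1 CPM in the controls. Both knockdown libraries were above both controls, and TSC2 rose by 0.41 on the log2 scale (SE 0.078, adjusted p = 0.00117). Its partner TSC1, with 24.2 and 26.3 CPM in the knockdown and 21.6 and 24.7 CPM in the control, had a log2 fold change of 0.12 (adjusted p = 0.447). TSC2 lies on chromosome 16 at 2047985 to 2089491 of GRCh38.p14, in RefSeq, where it overlaps PKD1. How reads in the shared stretch were assigned may depend on the strand setting of the counting, which is not given. PKD1 had 74.8 and 88.3 CPM in the knockdown and 98.3 and 76.4 CPM in the control and did not pass the test (log2 fold change -0.10, adjusted p = 0.533).

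The TSC2 promoter is shown because, among the promoters searched, it was the only one with CACGTG, a form of the E-box. Other forms of the E-box were not searched. The 250 bases before the upstream of its 2 listed starts (RefSeq, GRCh38.p14, chr16:2047735-2047984, plus strand) read as follows. Capitals mark CACGTG joined to TGATGNAA, the opening of the element bound by ATF4 and C/EBP proteins.
TSC2 promoter: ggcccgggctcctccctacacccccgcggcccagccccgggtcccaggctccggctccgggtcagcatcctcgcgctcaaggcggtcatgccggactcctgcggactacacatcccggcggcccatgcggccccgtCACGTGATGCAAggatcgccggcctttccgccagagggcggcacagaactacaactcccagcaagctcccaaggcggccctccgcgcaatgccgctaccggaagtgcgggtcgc
CACGTG lies 114 to 109 bases before the start and overlaps TGATGNAA at 110 to 103 bases, and it also holds ACGTG, the core of the hypoxia response element, on both strands. Searched on both strands, CACGTG was in 6.34% of the 35116 promoters of the table, TGATGNAA in 3.14%, and both together in 0.125%. A match is a description of letters and not a bound site.

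LARP1, the protein that binds TOP mRNAs when mTORC1 is off, had 257.5 and 269.4 CPM of RNA in the knockdown and 284.8 and 280.0 CPM in the control. The groups did not overlap, but the log2 fold change of -0.10 did not pass the test (SE 0.0688, adjusted p = 0.302). EIF4EBP1 (4E-BP1), which binds the cap-binding protein EIF4E until mTORC1 phosphorylates it, had 178.6 and 154.4 CPM in the knockdown and 135.1 and 147.4 CPM in the control. Its groups did not overlap, with the nearest libraries close to each other, and it rose by 0.24 (SE 0.0825, adjusted p = 0.0407). The EIF4EBP1 call was lost without knockdown replicate 1 (adjusted p = 0.149), without control replicate 1 (0.388), without control replicate 2 (0.0926) and with DESeq2 (0.0551). EIF4EBP2 and EIF4E, its paralog and its target, did not pass the test, with log2 fold changes of -0.09 (adjusted p = 0.352) and -0.14 (adjusted p = 0.153). Reads of the 3 4E-BP genes over those of EIF4E had log2 ratios of 2.28 and 2.28 in knockdown cells and 2.12 and 2.12 in control cells. That ratio was higher in both knockdown libraries, with an exact two-sided permutation p of 0.333, the smallest that 2 libraries against 2 can give. EIF4EBP1 made up 36.1 and 32.0% of 4E-BP reads in the knockdown and 28.5 and 29.9% in the control (exact permutation p = 0.333).

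DDIT4 (REDD1) is a small stress-induced protein that inhibits mTORC1 through the TSC complex, and its gene is known to be turned on by hypoxia through HIF1 and by ATF4. Its RNA had 19.6 and 26.5 CPM in the knockdown libraries, against 45.2 and 45.2 CPM in the controls. Both knockdown libraries lay far under both controls, and DDIT4 fell by 0.97 on the log2 scale (SE 0.121, adjusted p = 3.76e-05). The fall was called under all 9 alternatives run on it and ranged from -1.20 to -0.77 among them. The DDIT4 promoter is printed because this is the brake with the largest RNA fall of the 10 genes (RefSeq, GRCh38.p14, chr10:72273674-72273923, plus strand, 250 bases before the start), with capitals marking ACGTG.
DDIT4 promoter: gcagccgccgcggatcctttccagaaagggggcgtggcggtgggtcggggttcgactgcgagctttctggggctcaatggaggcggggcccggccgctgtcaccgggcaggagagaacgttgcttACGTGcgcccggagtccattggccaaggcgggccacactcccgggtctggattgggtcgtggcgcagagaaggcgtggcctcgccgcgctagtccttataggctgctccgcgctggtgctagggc
ACGTG is found once, 125 to 121 bases before the start, and in 18.5% of all promoters of the table. Neither TGATGNAA, CACGTG nor TGTTTAC, the forkhead motif that FOXO proteins bind, is in this window.

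The Sestrins are stress-induced proteins that bind GATOR2 and, in that way, dampen the amino acid input to mTORC1; SESN1 and SESN2 are textbook targets of p53, SESN2 also of ATF4, and SESN3 of FOXO factors. SESN2 RNA had 29.2 and 38.5 CPM in the knockdown, against 19.99 and 20.4 CPM in the control. It rose by 0.74 on the log2 scale (SE 0.127, adjusted p = 0.000491), the largest rise of the 10 genes in RNA-seq, and was called under all 9 alternatives, at 0.54 to 0.93. SESN1 RNA had 56.3 and 58.0 CPM in the knockdown and 43.7 and 45.8 CPM in the control. Its groups were well apart and it rose by 0.35 (SE 0.082, adjusted p = 0.00445), a call lost without control replicate 1 (adjusted p = 0.0843). SESN3 went the other way, with 34.1 and 37.4 CPM in the knockdown and 52.4 and 44.1 CPM in the control. SESN3 fell by 0.43 (SE 0.101, adjusted p = 0.00464), and without control replicate 1 the value was -0.30 and the call was lost (adjusted p = 0.126). None of the 4 motifs named here was found in the promoters of the 3 Sestrin genes, MTOR or RPTOR, and 1 of 4 LARP1 promoters holds TGTTTAC, which 2.98% of all promoters do.

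Within the family, SESN2 took a larger and SESN3 a smaller share of the RNA reads in both knockdown libraries. SESN3 made up 28.5 and 27.9% of Sestrin reads in the knockdown libraries, against 45.1 and 40.0% in the controls. SESN2 made up 24.4 and 28.8% in the knockdown and 17.2 and 18.5% in the control, and SESN1 47.1 and 43.3% in the knockdown and 37.7 and 41.5% in the control. For each of the 3 shares the groups did not overlap, and the exact two-sided permutation p was 0.333, the smallest possible here. These are shares of reads and not of molecules, since reads were not divided by transcript length, so they compare libraries and not genes. RPTOR over MTOR, a ratio within the complex, was lower in both knockdown libraries (log2 -0.21 and -0.22) than in the controls (-0.14 and 0.05; exact permutation p = 0.333). TSC2 over TSC1 had log2 ratios of 2.85 and 2.93 after knockdown and 2.71 and 2.52 in the controls, again without overlap (exact permutation p = 0.333). DEPTOR over MTOR overlapped, at -8.40 and -6.82 after knockdown and -8.06 and -6.42 in the controls (exact permutation p = 0.667).

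**Figure D2:**
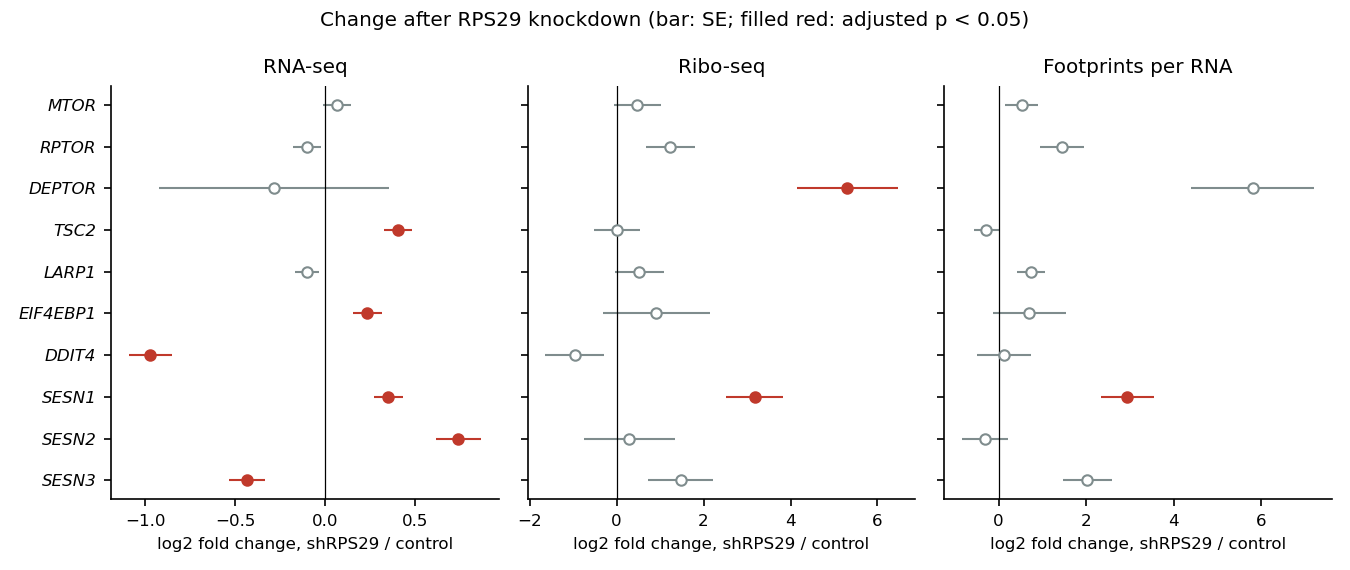
Log2 fold change, shRPS29 over control, of the 10 genes in RNA-seq, in Ribo-seq and in footprints relative to RNA, with bars for the SE and filled points for an adjusted p below 0.05; the 3 horizontal scales differ. In RNA-seq 4 filled points lie right and 2 left of 0, in Ribo-seq only DEPTOR and SESN1 are filled, and in footprints per RNA only SESN1 is.

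Footprint counts of these genes were low. A background in proportion to gene span was assumed, and that proportion was not tested. The background was taken from 142 protein-coding genes listed in both assays with at most 0.1 CPM of RNA. Their median was 0.346 and 0.224 counts per kb of gene span after knockdown, against 0.0623 and 0.0472 in the controls. Such genes not listed in Ribo-seq were left out, so these medians may exceed the background of all genes with that little RNA. The median was higher in both knockdown libraries, and a gene may have been listed through those libraries. It is given beside the longer genes as the count expected from their span. In Ribo-seq, 2 of the 10 genes were called higher, DEPTOR and SESN1, beside 7.96% of 11853 tested genes, and 0 of 10 were called lower, beside 0.607%. At an unadjusted p below 0.05 it was 3 of 10, RPTOR being the other, close to the 23.1% of all genes tested, and DESeq2 called 0 of 10 lower as well. The median log2 fold change was 0.71 over the 10 genes and 0.04 over all genes tested. Among genes with at least 10 CPM of RNA, the median was higher the longer the gene: it was 1.10 over 708 genes of 200 kb or more, 0.11 over 2823 genes of 50 to 200 kb, -0.35 over 2556 genes of 20 to 50 kb and -0.66 over 3009 shorter genes, a split chosen after the data were seen. Scaling from genes under 20 kb with at least 10 CPM of RNA, also chosen after the data were seen, moved the median of all genes by 0.74 and called 0 genes of the whole table, so 0 of the 10 as well.

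**Figure D3:**
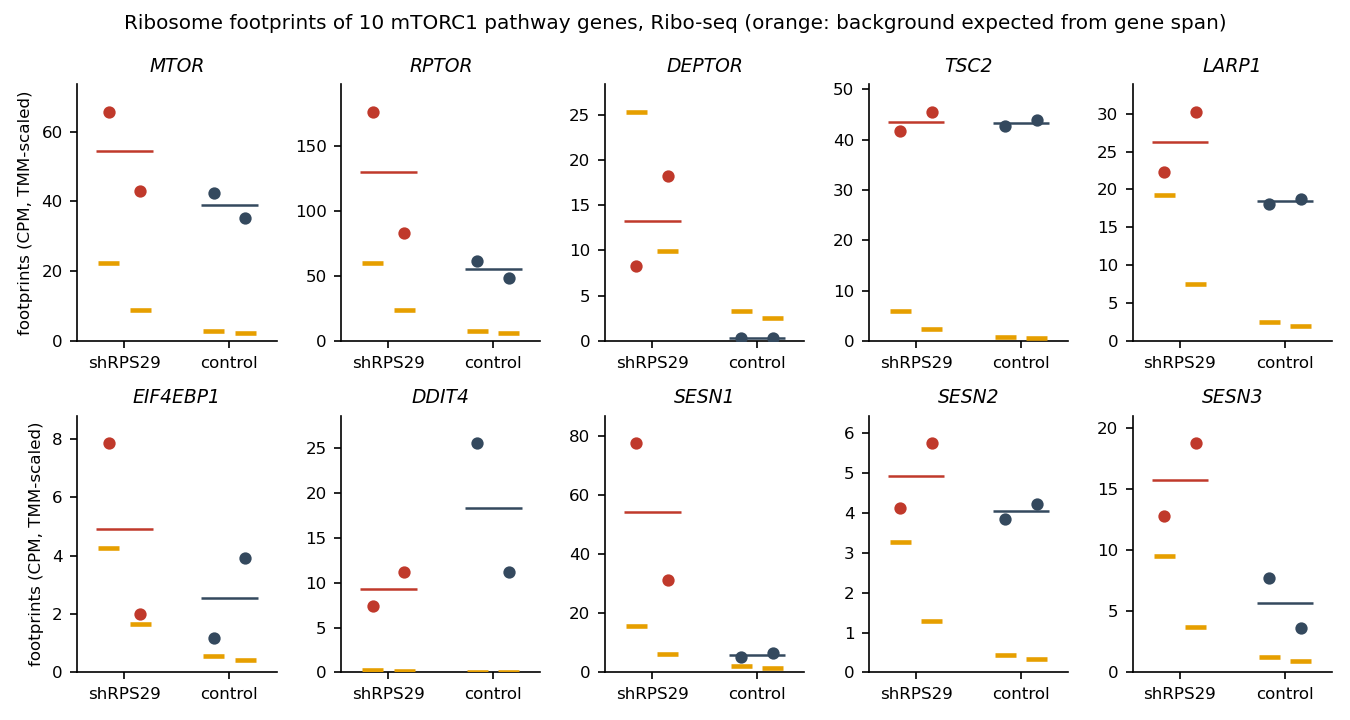
Footprints of each gene (CPM, TMM-scaled, axis from 0) in the 2 shRPS29 and the 2 control Ribo-seq libraries, with bars for group means and orange dashes for the background expected from gene span in that library. SESN1 and RPTOR lie above their orange dashes in all 4 libraries, DEPTOR lies under its dash in knockdown replicate 1 and in both controls, and DDIT4 has almost no expected background.

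DEPTOR had 20 and 73 footprints in the knockdown libraries, against 1 and 1 in the controls. Its span of 177 kb gave an expected background of 61.3 and 39.7 counts in the knockdown and 11.04 and 8.36 in the control. Only knockdown replicate 2 exceeded the expectation, and 43 of the 142 genes with hardly any RNA (30.3%) had at least as many footprints per kb in both knockdown libraries. DEPTOR passed the test (log2 fold change 5.31, SE 1.16, adjusted p = 0.00889), and the ratio of the 93 summed knockdown counts to the 2 summed control counts, each over its scaled library sizes, was 48.3 with an exact 95% interval of 13.0 to 405, which covers counting error only. Without knockdown replicate 2 the call was lost (adjusted p = 0.179), as it was with scaling from short well-expressed genes (0.0554). DEPTOR RNA, near 1 CPM or lower in every library, overlapped between the groups.

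SESN1 had 188 and 125 footprints in the knockdown libraries, against 18 and 22 in the controls. The groups were far apart, and each count was above the expected background of 38.2 and 24.8 in the knockdown and 6.89 and 5.21 in the control. SESN1 footprints rose by 3.17 on the log2 scale (SE 0.65, adjusted p = 0.00622). The call was lost without knockdown replicate 1 (adjusted p = 0.0839), without control replicate 1 (0.0972) and without control replicate 2 (0.118), with values of 2.38 to 3.62 across the 4 left-out libraries. It was also lost when scaling rested on short well-expressed genes, where the value was 4.04 (adjusted p = 0.0554). Of the 2823 tested genes with at least 10 CPM of RNA and a span of 50 to 200 kb, the class that holds SESN1, 95 were called higher (3.37%). Of the 142 genes with hardly any RNA, 11 (7.75%) had at least as many footprints per kb of span in both knockdown libraries. SESN1 spans 110.5 kb of chromosome 6, at 108984309 to 109094846, and overlaps ARMC2, whose footprints were 26 and 14 in the knockdown and 15 and 7 in the control.

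RPTOR had 426 and 333 footprints in the knockdown, against 206 and 161 in the control. Its gene, the longest of the 10 at 421.5 kb on chromosome 17, had an expected background of 145.8 and 94.4 counts in the knockdown and 26.3 and 19.9 in the control. Both knockdown libraries were above both controls, but the log2 fold change of 1.24 did not pass the test (SE 0.57, adjusted p = 0.202). It passed among genes with at least 50 counts in every library (1.49, adjusted p = 0.0332). MTOR, with 159 and 172 footprints in the knockdown and 143 and 117 in the control, was at 0.48 on the log2 scale (SE 0.539, adjusted p = 0.657). Its expected background was 53.95 and 34.95 counts in the knockdown and 9.72 and 7.36 in the control. MTOR spans 156.0 kb of chromosome 1, at 11106535 to 11262551, and a snoRNA gene lies inside it, as the microRNA gene MIR1303 lies inside LARP1. Loci named as copies of small RNA genes overlap RNU6-537P and RNU6-291P with MTOR, and RN7SL803P with LARP1. The 2 genes called in footprints have such overlaps too, RNA5SP277 with DEPTOR and RNU6-653P with SESN1. Small RNA reads at any of these places could be counted as footprints, which was not tested.

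DDIT4, a gene of 2.11 kb at 72273924 to 72276036 of chromosome 10, had 18 and 45 footprints in the knockdown and 86 and 37 in the control, with an expected background under 1 count in every library. After scaling for depth these were 7.43 and 11.2 CPM in the knockdown and 25.6 and 11.2 CPM in the control, so knockdown replicate 2 and control replicate 2 were level. The log2 fold change of -0.96 in DDIT4 footprints was close in size to that in its RNA but did not pass the test (SE 0.682, adjusted p = 0.438). With scaling from short well-expressed genes, or within those genes, it was between -0.31 and -0.30, and without control replicate 1 it was -0.28. TSC2 had 41.7 and 45.5 CPM of footprints in the knockdown and 42.8 and 43.8 CPM in the control. The rise of TSC2 RNA thus had no counterpart that passed the test in its footprints (log2 fold change 0.01, SE 0.526, adjusted p = 0.995), although an SE of that size leaves a rise such as that of the RNA undetectable.

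The remaining members had few footprints. LARP1 had 54 and 121 in the knockdown and 61 and 62 in the control, and SESN3 had 31 and 75 in the knockdown and 26 and 12 in the control. After scaling, both genes were higher in each knockdown library than in each control, with log2 fold changes of 0.52 (adjusted p = 0.647) and 1.47 (adjusted p = 0.254). The expected background was 46.6 and 30.2 counts for LARP1 and 23.2 and 15.0 for SESN3 after knockdown, against 8.39 and 6.35 for LARP1 and 4.17 and 3.16 for SESN3 in the controls. SESN2 had 10 and 23 footprints in the knockdown and 13 and 14 in the control, and EIF4EBP1 had 19 and 8 in the knockdown and 4 and 13 in the control. Groups overlapped for both SESN2 and EIF4EBP1, and neither passed the test (adjusted p = 0.911 and 0.718). EIF4EBP1 turned to -0.34 without knockdown replicate 1, and SESN2 to -0.040 without knockdown replicate 2.

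Footprints relative to RNA, the translational efficiency, were tested as an interaction over all 8 libraries. SESN1 was the only member called higher, 1 of 10 beside 3.01% of 10648 tested genes, and 0 of 10 were called lower, beside 0.873%. At an unadjusted p below 0.05, 5 of the 10 passed, SESN1, DEPTOR, SESN3, RPTOR and LARP1, each higher, beside 26.0% of all genes tested in either direction. In that order they span 110.5, 177, 67.0, 421.5 and 134.6 kb. Of the genes that did not pass, MTOR spans 156.0 kb, and DDIT4, TSC2, EIF4EBP1 and SESN2 span 2.11 to 41.5 kb. Footprint changes were higher in longer genes, and the expected background was not subtracted. Its part in these values was not tested. SESN1 rose by 2.94 on the log2 scale (SE 0.608, adjusted p = 0.0423). That call was lost without knockdown replicate 1 (adjusted p = 0.162), without control replicate 1 (0.204) and without control replicate 2 (0.273). SESN3, whose RNA fell, had 2.03 (SE 0.554, adjusted p = 0.0698), and DESeq2 called it (adjusted p = 0.00698). DEPTOR had 5.81 (SE 1.41, adjusted p = 0.0569), called by DESeq2 as well (adjusted p = 0.0175). RPTOR had 1.46 (adjusted p = 0.117; 0.043 without knockdown replicate 2), and LARP1 had 0.74 (adjusted p = 0.19). DDIT4 had 0.12 with a wide error (SE 0.623, adjusted p = 0.921). MTOR, TSC2, EIF4EBP1 and SESN2 had 0.53, -0.28, 0.70 and -0.32, with adjusted p of 0.421 to 0.745; TSC2 and SESN2 turned to 0.38 and 0.29 with scaling from short well-expressed genes. A gene's RNA and footprint libraries share 1 estimate of spread in that model, although footprints varied more between libraries than RNA did.

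Other genes of the pathway are given from lists of each step, and counts include any of the 10 genes in the list. Beside these counts, 14.4% of all 14723 genes tested in RNA were called higher and 16.3% lower. Several of the counts lie near those shares. The complex and its assembly factors had 1 of 8 higher in RNA and 0 lower, AKT1S1 (PRAS40), an inhibitory subunit, at 0.25 (adjusted p = 0.0126), a call lost without either control library. The mTORC2-specific subunits had 1 of 3 higher, MAPKAP1 (SIN1) at 0.35 (adjusted p = 0.00149; 0.051 without control replicate 1). In the TSC complex and RHEB, 1 of 5 was higher, TSC2 itself. Of 13 genes of the Rag GTPases, Ragulator and folliculin, which carry mTORC1 to the lysosome, 0 were higher and 4 lower. RRAGA was at -0.38, RRAGD at -0.53, LAMTOR3 at -0.30 and FNIP1 at -0.37, with 1 call left without control replicate 1, 2 without control replicate 2 and 6 without knockdown replicate 1.

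GATOR, KICSTOR and the nutrient sensors had 5 of 18 higher and 2 lower, with 2 higher and 1 lower without control replicate 1 and 3 higher without control replicate 2. BMT2 (SAMTOR), a sensor of S-adenosylmethionine, had the largest fall of that list, with 196 and 129 counts in the knockdown and 424 and 359 in the control (log2 fold change -1.35, adjusted p = 2.53e-05). ITFG2, a KICSTOR subunit, rose by 0.65 (adjusted p = 0.000223). For GATOR, KICSTOR and the sensors, 5 of 18 higher and 2 lower stand beside 14.4 and 16.3% of all genes tested. The stress brakes had 5 of 9 higher and 2 lower, TRIB3, a pseudokinase known to bind AKT, being the other called gene beside the members and AKT1S1, at 0.58 (adjusted p = 0.000722). Without control replicate 1 the brakes had 3 higher and 1 lower. The PI3K-AKT input had 1 of 13 higher and 5 lower, among them INSR, the insulin receptor, at -0.67 and PIK3CB, a PI3K catalytic subunit, at -0.78; 2 were lower without control replicate 1, 3 without control replicate 2 and 3 without knockdown replicate 1. AMPK and its upstream kinase had 2 of 9 higher, PRKAB1 at 0.31 and STK11 (LKB1) at 0.23, and 0 higher without either control library. In footprints, 2 of 8 AMPK genes were called higher, PRKAG2, a regulatory subunit of AMPK, at 3.51 and STK11 at 2.09. PRR5L of mTORC2 at 4.90 and MITF, a transcription factor of the TFEB family, at 3.09 were called higher too. PRKAG2, PRR5L and MITF span 321, 169 and 229 kb, and STK11 spans 22.7 kb. Beside 7.96% of all genes called higher in footprints, the AMPK count was 0 without knockdown replicate 1 or control replicate 2 and 1 without control replicate 1. PRR5L was lost without knockdown replicate 1, and MITF with any 1 of the 4 libraries left out. In footprints relative to RNA, 1 of 8 AMPK genes was called higher, PRKAG2 at 3.54 (adjusted p = 0.0492), beside 3.01% of all genes tested. That call was lost without knockdown replicate 1 or either control library.

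**Figure D4:**
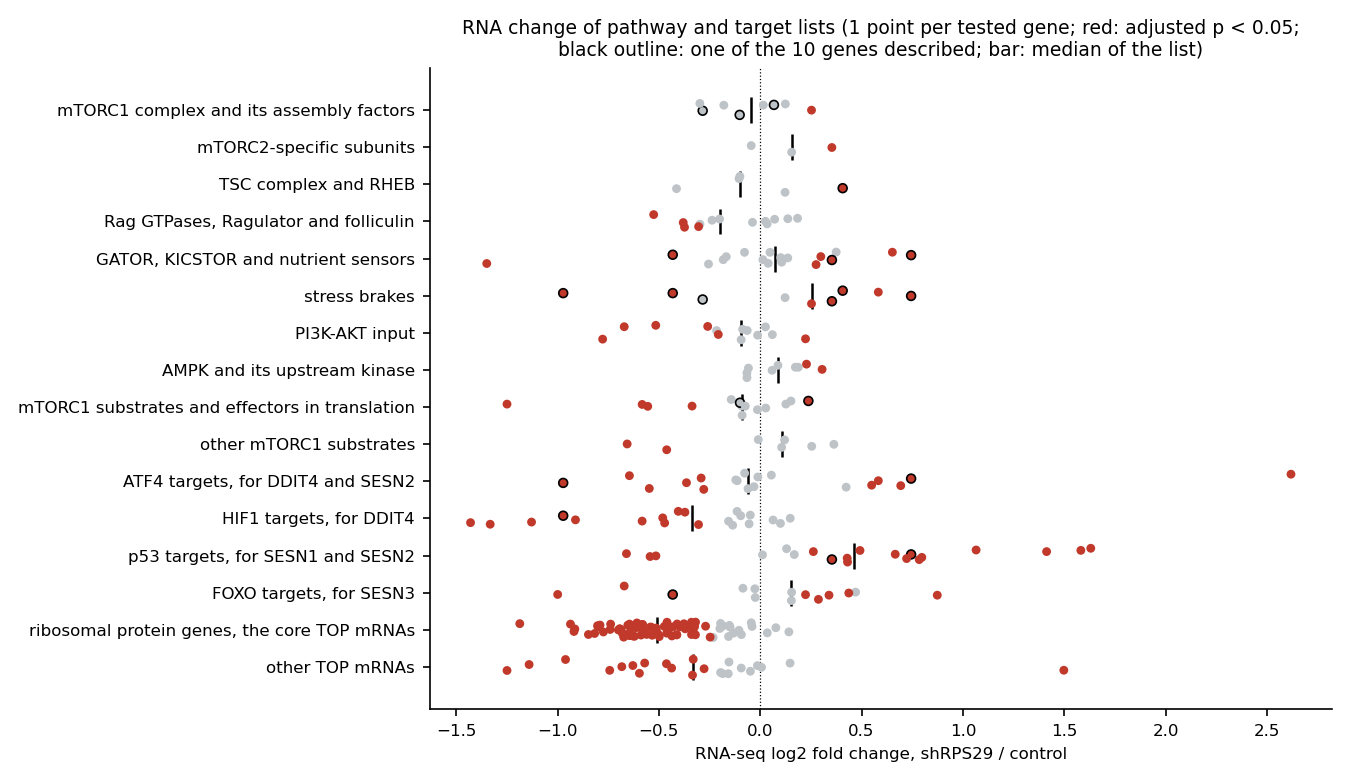
RNA-seq log2 fold change, shRPS29 over control, of every tested gene in the lists of pathway steps and of targets, 1 point per gene, with red for an adjusted p below 0.05, a black outline for the 10 genes described and a bar for the median of each list. The stress brakes spread from -0.97 (DDIT4) to 0.74 (SESN2), and most ribosomal protein genes lie left of 0.

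Downstream of the kinase, 1 of 14 substrates and effectors in translation was higher, EIF4EBP1, and 4 were lower. Over all genes tested in RNA, 14.4% were called higher and 16.3% lower. EIF4B, an initiation factor and itself a TOP mRNA, had 231.7 and 238.3 CPM in the knockdown and 551.1 and 566.7 CPM in the control, and fell by 1.25 (adjusted p = 4.19e-08). PDCD4, an inhibitor of EIF4A, fell by 0.56, RPS6 by 0.58 and EEF2K, the kinase of elongation factor EEF2, by 0.34. ULK1, the autophagy kinase, at -0.66 and LPIN1 at -0.46 were the 2 of 7 other mTORC1 substrates that fell. TOP mRNAs were lower in RNA: 63 of 78 ribosomal protein genes fell and 0 rose (median -0.51, against 0.01 over all genes). Among 23 other TOP RNAs, 13 fell and 1 rose (median -0.33). The 1 that rose was SNHG1, whose change was the largest of that list in size. SNHG1 and GAS5, which was not called, are noncoding hosts of snoRNAs, so the rise was not that of an mRNA. Left-out libraries moved the count of fallen ribosomal protein genes between 47 without control replicate 2 and 75 without knockdown replicate 1. In footprints 1 of 74 ribosomal protein genes was called lower, RPL35A at -2.32 (median of the list -0.49), and in footprints relative to RNA 0 of 74 were called lower and 1 higher, RPL6 at 2.06 (median 0.14). Of 20 other TOP RNAs, 1 was called lower in footprints, EIF3F at -2.25, and 0 in footprints relative to RNA (median -0.24). The EIF3F call was lost with any 1 of the 4 libraries left out, the RPL35A call without either control library, and the RPL6 call without knockdown replicate 1 or either control. At the depth and spread of the Ribo-seq libraries, this does not show that their translation was unchanged.

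The brakes were set beside the known targets of the factors that drive them, from lists that hold the brakes themselves. For RNA, the shares over all genes were 14.4% called higher and 16.3% called lower. DDIT4 was among the 11 of 20 HIF1 targets that fell, with 0 higher, led by VEGFA at -1.43, PDK1 at -1.33 and NDRG1 at -1.13 (ALDOC was at -0.91). The count was 9 to 11 with any library left out. Of 19 ATF4 targets 5 rose and 6 fell, DDIT3 (CHOP) at 2.62 and SLC3A2 at 0.69 being higher with SESN2, and PHGDH at -0.55 being lower with DDIT4; 4 were lower without control replicate 1 and 3 without control replicate 2. SESN1 and SESN2 were among the 14 of 20 p53 targets that rose, beside GDF15 at 1.63, CDKN1A at 1.41 and PHLDA3 at 1.06. The 3 that fell were TP53INP1 at -0.66, CCNG1 at -0.54 and ZMAT3 at -0.52, and MDM2 at 0.01 was not called. The median of the p53 list was 0.46 in RNA, -0.05 in footprints and -0.53 in footprints relative to RNA. Over all genes these medians were 0.01, 0.04 and 0.06. SESN3 was among the 3 of 15 FOXO targets that fell, with INSR at -0.67 and CCNG2, a cyclin G gene with 31.3 and 37.1 CPM in the knockdown and 65.7 and 71.1 CPM in the control, and 5 rose, led by GADD45A at 0.87; without control replicate 1 it was 3 higher and 2 lower, and without control replicate 2 it was 2 higher. In footprints, the 1 p53 target called was SESN1 and the 1 ATF4 target called was PSAT1, a serine synthesis enzyme, at -1.99, a call lost with any 1 of the 4 libraries left out, while 0 of 19 HIF1 and 0 of 14 FOXO targets were called. In footprints relative to RNA, 1 of 13 FOXO targets was called, CCNG2, higher at 2.19 (adjusted p = 0.0378) although its RNA fell. Of 15 ATF4 targets 1 was called, PSAT1, lower at -1.77 (adjusted p = 0.0361). Both calls were lost without knockdown replicate 1 or either control library. Over all genes 3.01% were called higher and 0.873% lower.

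For each gene called in RNA-seq, the 2 genes whose levels followed it most closely over the 8 libraries were found by the Pearson correlation of log2 CPM, centred within each assay, over 9097 protein-coding genes. The libraries share the knockdown and the Ribo-seq background, so these values describe likeness and nothing more. Each r is among the highest of 9097 genes over only 8 libraries, so a high r can arise from the selection alone. No link between the genes of a pair was tested. DDIT4 was most like KTN1 (r = 0.992) and NSMF (0.985), which lay at -0.55 and -0.51 in RNA. SESN2 was most like CDKN1A (r = 0.967) and ATP6V1C1 (0.955), and TSC2 was most like SESN2 (r = 0.948) and DCAF17 (0.923). SESN1 was most like LRPPRC (r = 0.999) and ADK (0.997), whose footprint log2 fold changes were 3.37 and 5.56 and whose spans were 110 and 558 kb. SESN3 was most like SRRM3 and ZNF197 (r = 0.989 and 0.987), and EIF4EBP1 was most like TMEM241 and EXOC6 (r = 0.994 and 0.993).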

How the data were processed

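RNA-seq and Ribo-seq were analysed as 2 tables of whole-number counts per gene symbol, as deposited by the authors, with 2 libraries in each of 4 groups. The submitters' processing notes name hg38 as the build and STAR, Bowtie2, Salmon, featureCounts and Trim Galore as tools. Their roles, versions, annotation and strand setting are not given here. Per the labels' protocols, the RNA-seq kit keeps strand. Whether footprints were limited to coding exons is likewise not given, so reads in introns may be counted.

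Counts were tested per gene in R 4.3.3 with edgeR 4.0.16 (quasi-likelihood F test, TMM scaling, filterByExpr) and Benjamini-Hochberg adjustment over all genes tested; adjusted p below 0.05 was called. The SE was taken as the size of the log2 fold change over the root of F. Translational efficiency was the assay-by-condition interaction over all 8 libraries with TMM within each assay. Ratios within a library were compared by exact permutation; they are read ratios, not per transcript length as planned, since no transcript lengths were used here. CPM are counts scaled by TMM. Places, spans and promoters came from RefSeq tables of GRCh38.p14; 8 of the 10 genes, with 14 promoter windows, were searched, and the other 2 are not reported here. The steps were tested on simulated data.

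All 10 genes are named. Of each list, up to 3 other genes with the smallest RNA-seq p among those called are named. FNIP1, EEF2K, NDRG1, PRKAG2, PRR5L, MITF, PSAT1, RPL35A, RPL6 and EIF3F were chosen after their values were seen. So were SNHG1, GAS5, TP53INP1, CCNG1, ZMAT3 and MDM2. The members and the 20 lists were chosen with earlier results of these data known. The labels do not say whether replicate numbers pair the libraries, and the main fits did not pair them. Deviations of same-numbered libraries correlated at -0.072 in RNA-seq and 0.0985 in Ribo-seq, which cannot settle it. With a replicate block, Ribo-seq calls were 1402 higher and 397 lower, against 944 and 72 without it. Alternatives were RLE scaling, DESeq2 1.42.0, other count filters, a replicate block, each library left out and, for Ribo-seq and translational efficiency, short well-expressed genes (span under 20 kb, at least 10 CPM of RNA).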

Additional observations from a re-analysis of the deposited data

How the results depend on the processing

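Footprint results carried the limits. The Ribo-seq spread and the background expected from span leave changes of the size seen in RNA undetectable for most of the 10 genes. Scaling from short well-expressed genes, chosen after seeing the data, shifted the median of all genes by 0.74 in Ribo-seq and 0.64 in translational efficiency, so footprint directions are relative to the scaling. The cause of the changes listed here was not tested.

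In RNA-seq, leaving out 1 library gave 1225 to 2739 genes higher and 1496 to 2876 lower, and 2 to 4 of the 10 genes higher and 1 to 2 lower; DEPTOR ranged from -1.33 to 0.70 and PKD1 from -0.27 to 0.092. In Ribo-seq it gave 247 to 694 higher and 5 to 53 lower, with 1 of the 10 higher in each case; TSC2 ranged from -0.12 to 0.081, EIF4EBP1 from -0.34 to 1.93 and SESN2 from -0.040 to 0.51. In translational efficiency it gave 0 to 524 higher, 0 to 436 lower and 0 to 2 of the 10 higher; EIF4EBP1 ranged from -0.40 to 1.73 and DDIT4 from -0.37 to 0.87.

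In Ribo-seq, genes higher numbered 239 with at least 50 counts in every library, 8 within short well-expressed genes and 0 with scaling from them; genes lower numbered 171 with DESeq2, 397 with the replicate block, and 0 within short well-expressed genes or with scaling from them. Of the 10 genes, 1 was higher with at least 50 counts and 0 with scaling from short genes, and TSC2 was at -0.016 with no count filter. In translational efficiency, genes higher numbered 1015 with DESeq2, 115 with at least 50 counts, 22 with the replicate block and 2 within short genes. Genes lower numbered 675 with DESeq2, 58 with no filter, 0 with the replicate block, 0 within short genes and 18 with scaling from them. Of the 10, 3 were higher with DESeq2 and 3 with scaling from short genes, and 0 with no filter, with at least 50 counts or with the replicate block; TSC2 was at 0.38 and SESN2 at 0.29 with scaling from short genes.

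From footprints in place of RNA, the knockdown minus control differences were 30.4 points for the SESN1 share, -18.7 for SESN2 and -11.7 for SESN3, and on the log2 scale -0.49 for 4E-BP over EIF4E, 0.69 for RPTOR over MTOR, 4.90 for DEPTOR over MTOR and -0.088 for TSC2 over TSC1. The replicate block, in which same-numbered libraries are paired, ended the call of 5 of 82 gene results: EIF4EBP1 (adjusted p = 0.087), STK11, CD14 and COL1A1 in RNA-seq and SESN1 in translational efficiency (0.0764).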
